A study of Mus musculus with 6 samples.

Results

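A set of 10 genes of metal and heme handling was described in mouse liver with and without the cholesterol transporter Abca1 in hepatocytes. They comprised the iron genes Trf, Tfr2, Hamp, Fth1, Ftl1 and Slc40a1, the heme synthesis gene Alas1, the copper protein gene Cp and the metallothionein genes Mt1 and Mt2. A gene was taken where its symbol equalled the name of a row of the deposited table or 1 comma-separated part of that name. All 10 symbols were found among 29981 rows, each in a single row that names no other gene, and each had reads in all 6 libraries.

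The study compared livers of C57BL/6 mice with a hepatocyte-specific, Albumin-Cre driven deletion of Abca1 (HSKO, 3 libraries) with livers labelled wildtype, which the series text calls floxed controls (WT, 3 libraries). Both groups were without food from 9 am to 1 pm before the liver was taken, so all values are from briefly fasted animals. The age and sex of the mice, and whether the controls carried the Cre, are not stated in the labels or the series text. Albumin-Cre acts in hepatocytes, so other liver cells keep Abca1, and RNA came from whole liver. The labels give each sample its own number but do not tie it to a separate animal, and the p-values therefore speak only of how far these 6 libraries scatter, which may be technical.

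The liver stores iron and sets its level in the whole body. Plasma transferrin, the product of Trf, carries iron to cells. In hepatocytes, transferrin receptor 2 (Tfr2) senses loaded transferrin, and the peptide hormone hepcidin (Hamp) is released when iron is plentiful and removes the exporter ferroportin (Slc40a1) from cell surfaces. Iron inside the cell is held in ferritin shells built from heavy and light chains (Fth1, Ftl1), and ceruloplasmin (Cp), a copper-bearing plasma enzyme, oxidises iron so that transferrin can bind it. Alas1 catalyses the first and rate-limiting step of heme synthesis in hepatocytes. Metallothioneins (Mt1, Mt2) are small cysteine-rich proteins that bind zinc and copper, and their genes are transcribed in response to zinc through the metal sensor Mtf1, and to glucocorticoids.

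Each deposited value is a read count over the size factor of its library, and that factor was 1.31 to 1.77 in WT and 0.684 to 0.752 in HSKO. Whole reads could be recovered from them and summed to between 838637 and 933319 in WT and between 631020 and 702013 in HSKO. A single row, BC071253, held 43.1% to 57.8% of all reads. Reads of the deleted gene Abca1 numbered 20, 36 and 34 in WT and 2, 1 and 2 in HSKO. All 6 libraries thus matched their labels. All 15 hepatocyte markers looked up had reads, and their summed value was 14403 to 17062 in WT and 9126 to 13369 in HSKO. Of these 15, 6 were called lower and 9 neither way (limma, Benjamini-Hochberg adjusted p below 0.05), with a median log2 fold change of -0.58. In whole liver, fewer cells of a type and less RNA per cell cannot be told apart.

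Of the 10 genes, Cp and Trf fell in HSKO livers and Mt1 rose, and the other members did not pass the test or were not tested. The limma test, on log2(value + 1), covered the 2750 rows whose mean over the 6 libraries was at least 10. Mt2 had a mean of 7.04 and stayed below that limit, so 9 of the 10 were tested. Over all rows tested, 40.1% were called, 28.5% higher and 11.6% lower. Among the 9 tested members, 1 was called higher and 2 lower, and 8 of the 9 log2 fold changes were below 0. Their median was -0.55, against 0.07 for all rows tested and the -0.58 of the hepatocyte markers. The background depended on level. Among rows with a mean of at least 50, the median was 0.88 for all rows and -0.44 for the 6 members tested there. The 6 deposited values of each gene are shown in the plot by library.

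**Figure D1:**
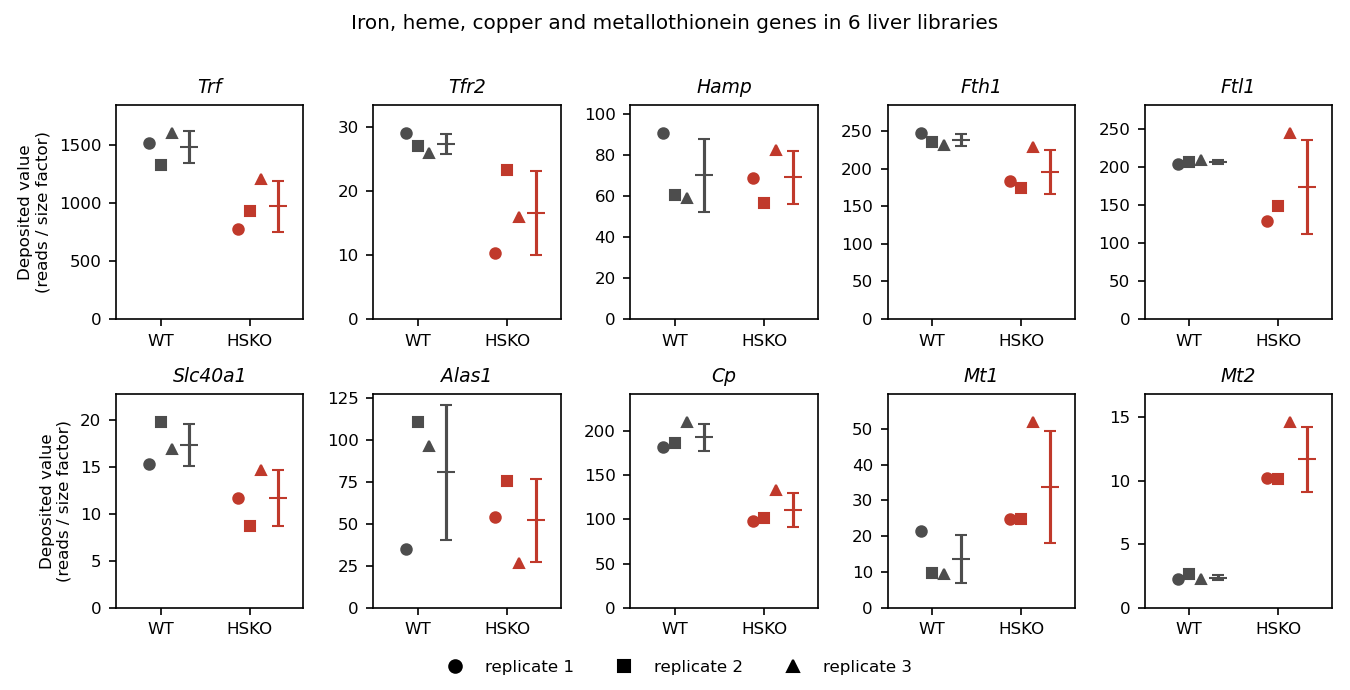
Deposited value (reads divided by the size factor, vertical axes starting at 0) of each of the 10 genes in the 3 WT libraries (grey) and the 3 HSKO libraries (red), with a symbol per replicate number and the mean with SD beside the points. The groups did not overlap for Trf, Tfr2, Fth1, Slc40a1, Cp, Mt1 and Mt2, and overlapped for Hamp, Ftl1 and Alas1.

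The values of the groups did not overlap for 6 of the 9 tested members, against 51.5% of all rows tested. In 5 of them, Trf, Tfr2, Fth1, Slc40a1 and Cp, all HSKO libraries lay below all WT libraries, an order found in 20.1% of all rows tested. In Mt1 all HSKO libraries lay above, as in 31.4% of all rows tested. Mt2, which was not tested, also had every HSKO library above every WT library. In total reads, the 10 genes took 0.345% to 0.522% of a WT library and 0.148% to 0.235% of an HSKO library, and Trf alone made up 56.8% to 65.1% of them.

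Levels between genes were compared per kilobase of the longest transcript that GENCODE marks as principal for each gene. In WT, the mean value per kilobase was 578 for Trf, 213 for Ftl1, 171 for Hamp, 159 for Fth1, 47.7 for Cp, 24.8 for Mt1, 23.7 for Alas1, 8.89 for Tfr2, 5.14 for Slc40a1 and 4.68 for Mt2. In HSKO it was 378 for Trf, 179.6 for Ftl1, 169 for Hamp, 131 for Fth1, 61.6 for Mt1, 27.5 for Cp, 22.9 for Mt2, 15.3 for Alas1, 5.37 for Tfr2 and 3.47 for Slc40a1. Transferrin was the most abundant of the 10 in both groups. Mt1 stood below Cp in WT and above it in HSKO. Slc40a1 and Mt2 in WT, and Mt1 and Alas1 in WT, differed by less than the spread of their libraries. Part of the order rested on the length used. Per kilobase of all annotated exons joined, WT Fth1 was at 68.7 against 171 for Hamp and 154 for Ftl1, and Slc40a1 (1.92) stood below Mt2 (4.07), while Trf remained first (448) and Mt1 was again below Cp in WT (10.9 and 20.1) and above it in HSKO (27.1 and 11.6).

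Transferrin messenger RNA fell in HSKO, from the highest level of the 10 genes. Trf (chromosome 9, 103204001 to 103230444, minus strand, mm10) was at 1522, 1330 and 1607 in the WT libraries and at 778, 934 and 1206 in the HSKO libraries. Every HSKO library was below every WT library, with HSKO replicate 3 nearest to WT. The means were 1486 ± 142 and 972 ± 217 (SD, n = 3), and in limma the log2 fold change of Trf was -0.63 with an SE of 0.24 (adjusted p = 0.0403). The call was narrow. Leaving out any library other than HSKO replicate 3 raised the adjusted p above the threshold, to 0.0562 without WT replicate 1, 0.0751 without WT replicate 2, 0.0525 without WT replicate 3, 0.180 without HSKO replicate 1 and 0.135 without HSKO replicate 2. Trf had 6865 reads in WT and 2081 in HSKO, and the size-factor corrected ratio of WT to HSKO reads, 1.52, had a counting interval of 1.45 to 1.599 (95%). Gm20425, a gene that overlaps Trf on the same strand, shares 79.8% of the stretches of 50 bases in the Trf transcript. No row has the name Gm20425, and reads of the 2 genes could not be told apart here.

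Tfr2, the transferrin sensor, had lower values in HSKO without passing the test. Tfr2 (chromosome 5, 137569840 to 137587481, plus strand) was at 29.0, 27.0 and 25.9 in WT and at 10.2, 23.3 and 16.0 in HSKO. The WT libraries were close together and the HSKO libraries far apart, all below WT. The log2 fold change was -0.76 (SE 0.31, 95% interval -1.41 to -0.12, limma adjusted p = 0.0554), from 125 reads in WT and 35 in HSKO. Without HSKO replicate 2, the highest of its group, the adjusted p was 0.0217 and the log2 fold change -1.04, and without HSKO replicate 1, the lowest, they were 0.207 and -0.48. With any of the other 4 libraries left out Tfr2 was not called (adjusted p 0.0778 to 0.123). Tfrc, the transferrin receptor of most other cell types, named here after its values were seen, had at most 1 read in any library.

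The ferritin genes and ferroportin share a short regulatory element in their messenger RNA, shown here because it groups 3 of the 10 genes. The iron responsive element is a hairpin with the loop CAGTGN, to which iron regulatory proteins bind. At the 5′ end of a messenger RNA it blocks translation when iron is low, so changes through it need not appear in RNA levels. A pattern of the bulge base C, any 5 bases and the loop was searched on the transcribed strand of annotated 5′ untranslated regions (GENCODE M21, mm10) of any length. It was found in Fth1, Ftl1, Slc40a1 and 1 of 5 Tfr2 transcripts among the 10 genes, and in 10.8% of all 20890 genes with such a region. The stem was not searched, and a match is a description and not a site. Capitals mark the 6 bases of the loop pattern in 30 bases of each region, 5′ to 3′.
Fth1, chr19:9982732-9982761, plus strand: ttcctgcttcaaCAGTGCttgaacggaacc
Ftl1, chr7:45459778-45459807, minus strand: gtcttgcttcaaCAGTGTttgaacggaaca
Slc40a1, chr1:45925464-45925493, minus strand: caacttcagctaCAGTGTtagctaagtttg

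The ferritin chains did not pass the test. Fth1, the heavy chain with ferroxidase activity (chromosome 19, 9980598 to 9985098, plus strand), was at 247, 236 and 232 in WT and at 184, 174 and 229 in HSKO. All HSKO libraries lay below WT, but HSKO replicate 3 came within a few units of WT replicate 3. Its log2 fold change was -0.29 (95% interval -0.76 to 0.18, limma adjusted p = 0.312). Ftl1, the light chain (chromosome 7, 45457944 to 45459884, minus strand), was at 205, 207 and 209 in WT and at 129, 148 and 245 in HSKO. Its WT libraries were almost identical, while HSKO replicates 1 and 2 lay below and HSKO replicate 3 above all of them. The log2 fold change of Ftl1 was -0.30 (95% interval -0.83 to 0.23, adjusted p = 0.346), and it ran from -0.12 without HSKO replicate 1 (adjusted p = 0.771) to -0.58 without HSKO replicate 3 (adjusted p = 0.0785).

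The ratio of Fth1 to Ftl1, which does not depend on how libraries are scaled, was 1.21, 1.14 and 1.11 in WT and 1.43, 1.18 and 0.935 in HSKO. The HSKO libraries thus lay on both sides of the WT range, and the heavy and light chains kept a similar balance in WT. Ferritin counts are uncertain because of copies of these genes. Of the 50-base stretches of the Ftl1 transcript, 78.9% also occur in transcripts of 15 other annotated genes, among them Ftl1-ps1 and Ftl1-ps2. Of those of Fth1, 4.01% occur in 1 other gene, Gm6977. No row has the name Ftl1-ps1, Ftl1-ps2 or Gm6977.

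Ferroportin and hepcidin, the exporter and the hormone that removes it, were not called. Slc40a1 (chromosome 1, 45908068 to 45926523, minus strand) was at 15.3, 19.7 and 16.9 in WT and at 11.7, 8.72 and 14.6 in HSKO, from 80 and 25 reads. All HSKO libraries were below WT, by little for HSKO replicate 3, and the log2 fold change was -0.55 (95% interval -1.24 to 0.14, limma adjusted p = 0.187). In liver, macrophages also express Slc40a1. Of 14 macrophage markers looked up, 13 had a row and reads, with summed values of 66.4 to 116 in WT and 59.6 to 102 in HSKO. The 2 that were tested, named after their values were seen, differed in sign. Each had a mean above the limit of 10 only in the group where it was higher. The means were 15.4 in WT and 6.46 in HSKO for Cd5l, and 8.77 and 15.1 for Marco. Their signs thus depend on that selection and do not speak for the macrophage markers as a set. Cd5l, a macrophage-secreted protein, was called lower (log2 fold change -1.18, adjusted p = 0.0442), and Marco, a scavenger receptor, was at 6.11, 19.1 and 1.13 in WT and 5.85, 11.6 and 27.9 in HSKO and was not called (adjusted p = 0.219). Their part in the Slc40a1 values was not tested.

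Hamp (chromosome 7, 30942368 to 30944032, minus strand) was at 90.8, 60.5 and 59.2 in WT and at 68.7, 56.7 and 82.4 in HSKO. The HSKO libraries fell within or next to the WT range, and the means were 70.2 ± 17.9 and 69.3 ± 12.9 (SD, n = 3). The log2 fold change was -0.01, with a 95% interval of -0.55 to 0.54 (limma adjusted p = 0.984). Its neighbour Hamp2, which shares 16.6% of the 50-base stretches of the Hamp transcript and was looked up after its values were seen, had at most 3 reads in any library. Hamp was the tested member whose mean differed least between the groups with the deposited scaling. Relative to transferrin every HSKO library was above every WT library, at 88.3, 60.8 and 68.4 units per 1000 units of Trf against 59.7, 45.5 and 36.9 in WT. HSKO replicate 2 and WT replicate 1, with 39 and 119 Hamp reads, were nearly level in this ratio. No rescaling of whole libraries can change this ratio, but Trf itself was called lower, and a gene with level values rises relative to it. The share of all rows that separate from Trf in this way was not counted.

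Ceruloplasmin messenger RNA fell, and of the 3 called members it had the fewest lost calls among the alternatives tried. Most of the alternative scalings moved the median of all rows down, which favours calls of falling genes over those of rising genes. Cp (chromosome 3, 19957054 to 20009145, plus strand) was at 182, 186 and 209.8 in WT and at 97.9, 102 and 133 in HSKO. The highest HSKO library was well below the lowest WT library. The means were 192 ± 15.3 and 111 ± 19.2 (SD, n = 3), 1.73 times lower in HSKO. Limma put Cp at -0.80 on the log2 scale with an SE of 0.23 (adjusted p = 0.0110). Without HSKO replicate 2 the adjusted p was 0.0568, and it stayed below the threshold with any other library left out (0.00949 to 0.0491). The exons of Cp overlap those of Hps3 on the opposite strand, and Hps3 had at most 8 reads in any library.

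Trf and Cp, whose products act in sequence on plasma iron, were also compared as a ratio within each library. The Trf value was 8.38, 7.17 and 7.66 times that of Cp in WT and 7.94, 9.17 and 9.07 times in HSKO. HSKO replicate 1 lay inside the WT range and the other HSKO libraries just above it.

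Alas1, the gate of hepatic heme synthesis, varied widely within both groups and did not pass the test. Alas1 (chromosome 9, 106233455 to 106248654, minus strand) was at 35.1, 111 and 96.4 in WT and at 54.1, 75.6 and 26.6 in HSKO. WT replicate 1 and HSKO replicate 3 were low and WT replicates 2 and 3 high, and the groups overlapped. The coefficient of variation was 49.7% in WT and 47.2% in HSKO, against 9.55% and 22.3% for Trf. The log2 fold change was -0.58 (SE 0.38, 95% interval -1.39 to 0.22, limma adjusted p = 0.228). Without WT replicate 1 the log2 fold change was -1.09 and the adjusted p 0.0152. Without HSKO replicate 3 they were -0.17 and 0.735, and without WT replicate 2 -0.28 and 0.628. Exons of 4930500F10Rik overlap Alas1 on the opposite strand, and no row has that name.

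The metallothionein genes were the members with higher values in HSKO. They lie side by side on chromosome 8, Mt2 from 94172664 to 94173568 and Mt1 from 94179082 to 94180327, both on the plus strand and 5513 bases apart. Mt1 rose from 21.4, 9.87 and 9.59 in WT to 24.8, 24.7 and 51.9 in HSKO. WT replicate 1 stood above the other WT libraries and HSKO replicate 3 far above the other HSKO libraries, with no overlap of the groups. The means were 13.6 ± 6.72 and 33.8 ± 15.6 (SD, n = 3), 2.48 times higher in HSKO. Limma put Mt1 at 1.26 on the log2 scale, with a 95% interval of 0.52 to 1.995 (adjusted p = 0.00892). Without HSKO replicate 3 the log2 fold change was 0.91 and the call was lost (adjusted p = 0.0579), and without WT replicate 1 it was 1.61 (adjusted p = 0.00182).

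Mt2 was at 2.29, 2.63 and 2.26 in WT and at 10.2, 10.2 and 14.6 in HSKO. The libraries within a group were close and the groups far apart, but the values rest on 3, 4 and 4 reads in WT and 7, 7 and 11 in HSKO. Corrected for size factors, the ratio of HSKO to WT reads was 4.93, and counting error alone leaves it between 2.34 and 11.1 (exact 95% interval). With no limit on the mean, limma put Mt2 at 1.89 on the log2 scale with an SE of 0.45 (adjusted p = 0.00824), in a fit of 13807 rows that called 4.52% of them higher and 1.53% lower. In edgeR's quasi-likelihood test without the limit, chosen after seeing the data, the log2 fold change of Mt2 was 2.13 (adjusted p = 0.00370, 4.78% of rows called higher). DESeq2 without the limit, also chosen after seeing the data, gave 2.29 and no adjusted p. Exons of Gm45774 overlap Mt2 on the opposite strand, and no row has that name.

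How far the metallothioneins stood apart depended on the denominator. In RPM of total reads, Mt1 was at 31.4, 16.1 and 20.3 in WT and 26.9, 24.2 and 60.5 in HSKO. WT replicate 1 lay within the HSKO range. In RPM of the reads outside BC071253, it was at 66.7, 29.5 and 35.6 in WT and 61.8, 57.3 and 112 in HSKO. Mt2 was at 3.36, 4.29 and 4.77 RPM of total reads in WT and 11.1, 9.97 and 17.1 in HSKO, and its groups remained apart. Relative to transferrin, Mt1 stood at 14.0, 7.42 and 5.97 units per 1000 units of Trf in WT and at 31.9, 26.5 and 43.0 in HSKO, and Mt2 at 1.504, 1.98 and 1.40 in WT and at 13.2, 10.9 and 12.1 in HSKO. Trf itself was called lower, which raises such ratios in HSKO. The ratio of Mt1 to Mt2 was 9.33, 3.75 and 4.25 in WT and 2.43, 2.43 and 3.55 in HSKO. All HSKO libraries were lower, but the order is uncertain. It rests on 3, 4 and 4 Mt2 reads in WT and 7, 7 and 11 in HSKO. The share of gene pairs that separate in this way was not counted. The family members Mt3 and Mt4 had 0 reads in all 6 libraries.

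The stretches upstream of the 2 metallothionein genes are shown because both genes had higher values in HSKO. Metal response elements, to which Mtf1 binds, hold the core TGCACNC or TGCGCNC. Both cores were searched on both strands of RefSeq promoter windows (GRCm38.p6, 250 bases before to 50 after each annotated start). The Mt1 window held 3 matches and the Mt2 window 4, counted on either strand. At least 1 match occurred in 25.7% of 32851 promoter windows, at least 3 in 1.97% and at least 4 in 0.517%. Of the 8 members with a promoter window, Alas1 also had matches, 3 in the window of 1 start and 1 in that of another, while the windows of Tfr2, Hamp, Fth1, Ftl1 and Cp had 0. Such matches are a description of these windows and not sites. Capitals mark the matches in the bases before the start, plus strand, 5′ to 3′, with 1 match of Mt1 and 3 of Mt2, and the other matches lie in the bases left out at the 3′ end of each window.
Mt1, chr8:94178839-94179081: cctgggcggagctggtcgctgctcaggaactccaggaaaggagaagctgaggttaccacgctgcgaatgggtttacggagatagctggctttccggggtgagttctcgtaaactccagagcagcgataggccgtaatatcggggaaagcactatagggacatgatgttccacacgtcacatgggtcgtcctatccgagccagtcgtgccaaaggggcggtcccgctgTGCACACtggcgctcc
Mt2, chr8:94172368-94172617: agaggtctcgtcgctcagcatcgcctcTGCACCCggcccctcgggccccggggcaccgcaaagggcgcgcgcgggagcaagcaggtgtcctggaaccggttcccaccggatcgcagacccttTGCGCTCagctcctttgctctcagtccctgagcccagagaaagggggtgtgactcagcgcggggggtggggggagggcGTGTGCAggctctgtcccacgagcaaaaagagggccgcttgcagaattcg

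The sign of the storage and hormone genes depended on how libraries were scaled. The other tested members kept their sign, though some only by a small margin. Alternative scalings moved the median log2 fold change of all rows by -0.28 (upper quartile), -0.09 (quantile normalization), -0.20 (edgeR with TMM), -0.47 (total reads without BC071253), -0.64 (total reads) and 0.53 (the summed hepatocyte markers) from 0.07. Quantile normalization moved rows unequally. With it Trf went from -0.63 to -1.33 and Fth1 from -0.29 to -0.85, while Slc40a1 stayed at -0.55. In each of the alternative scalings Trf, Tfr2, Slc40a1, Alas1 and Cp had log2 fold changes below 0 and Mt1 above 0. Scaled to hepatocyte markers, however, Trf was at -0.07, Tfr2 at -0.23, Slc40a1 at -0.02, Alas1 at -0.03 and Cp at -0.24, with adjusted p between 0.544 for Cp and 0.973 for Alas1, and Hamp, Fth1 and Ftl1 were at 0.55, 0.27 and 0.26. The median of the 9 members was then -0.02, against 0.61 for all rows. Mt1 was at 1.78 with that scaling (adjusted p = 0.000923).

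Trf and Cp were called lower in 6 of the 7 scalings, all but that to hepatocyte markers, and Mt1 higher in 5. Mt1 was not called with total reads (log2 fold change 0.62, adjusted p = 0.165) or total reads without BC071253 (0.79, adjusted p = 0.0514). Tfr2 was called lower in 5 scalings, all but the deposited one and that to hepatocyte markers. Fth1 and Ftl1 were called lower in 4, Slc40a1 and Alas1 in 3 and Hamp in 1, that to total reads (log2 fold change -0.67, adjusted p = 0.0430). These counts stand against a background that moved as well. The share of all rows called lower was 25.6% with upper quartile scaling, 18.3% with quantile normalization, 21.9% in edgeR, 33.2% with total reads without BC071253, 38% with total reads and 0.909% with hepatocyte markers. The share called higher was 21.1%, 21.6%, 24.9%, 15.6%, 8.04% and 39.9% in the same order. The hepatocyte markers themselves took 0.990% to 1.56% of reads in HSKO and 2.12% to 3.61% in WT, and their part in the lower values of the members was not tested.

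**Figure D2:**
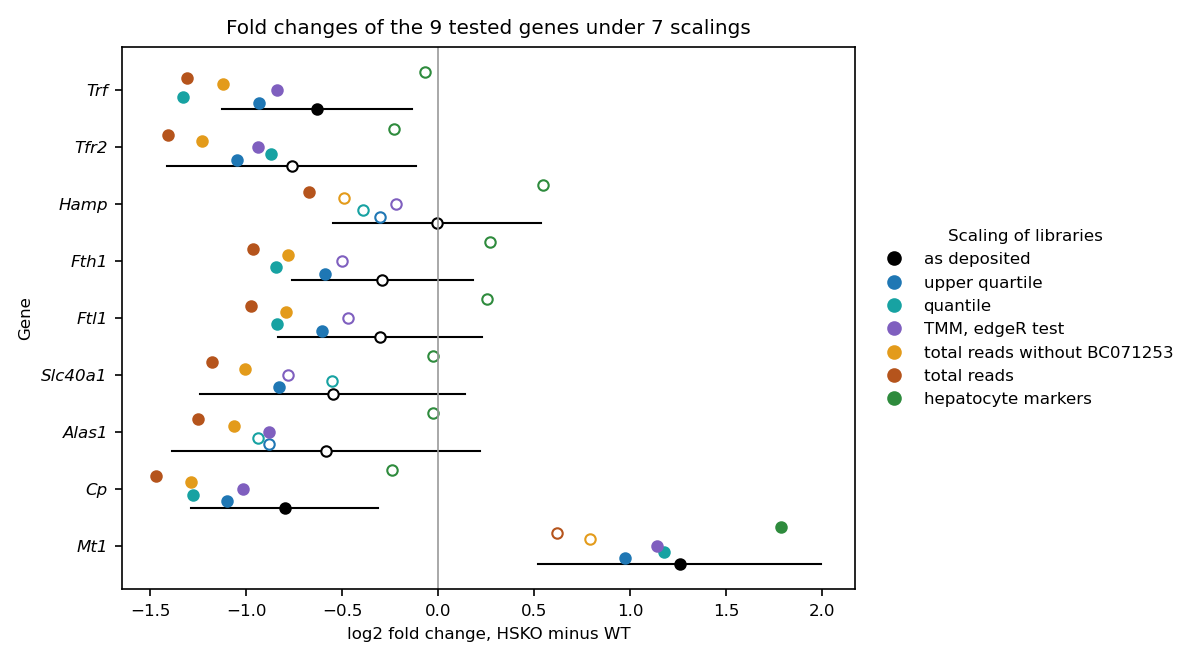
Log2 fold change (horizontal axis, HSKO minus WT) of the 9 tested genes under 7 scalings of the libraries, filled where the adjusted p was below 0.05 and open elsewhere, with the 95% interval as a line for the deposited scaling. The edgeR points also differ in the test. With scaling to hepatocyte markers (green) the 8 genes other than Mt1 lie between -0.24 and 0.55, all open, and Mt1 lies at 1.78.

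**Figure D3:**
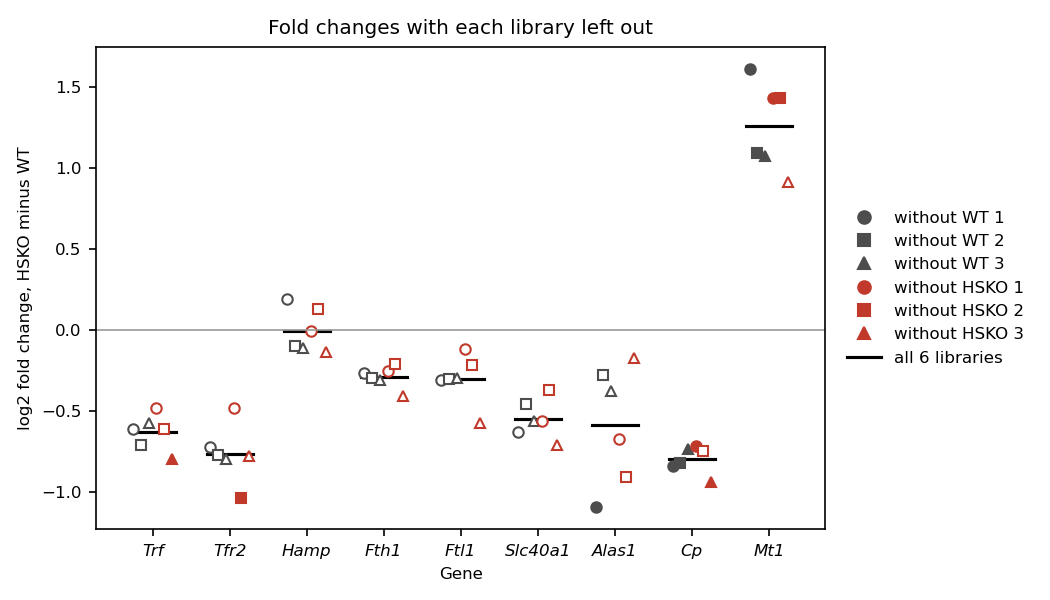
Log2 fold change (vertical axis, HSKO minus WT) of the 9 tested genes in limma with each of the 6 libraries left out, filled where the adjusted p was below 0.05 and open elsewhere, and with all 6 libraries (black line). Mt1 ranges from 0.91 to 1.61, Cp from -0.94 to -0.72 and Alas1 from -1.09 to -0.17, and the values of Hamp lie on both sides of 0.

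The background moved with the libraries left out too. Of all rows tested, 29.9%, 25% and 21.1% were called higher without WT replicates 1, 2 and 3, and 25.2%, 23.5% and 25.7% without HSKO replicates 1, 2 and 3. In the same order, 11.4%, 5.78%, 5.71%, 9.31%, 8.55% and 10.3% were called lower. DESeq2 called 21.3% higher and 11.8% lower, limma without the trend 27.2% and 9.67%, and limma on rows with a mean of at least 50 called 56.8% and 17.2%.

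The wider set of iron genes lay mostly below 0 in HSKO with the deposited scaling, as the hepatocyte markers did, but not with scaling to those markers. Of 41 listed genes of iron transport, storage and sensing, 39 had reads and 14 were tested, and 4 were called lower and 10 neither way, with a median log2 fold change of -0.51. Over all rows tested 11.6% were called lower, and the median of the hepatocyte markers was -0.58. Scaled to hepatocyte markers, the median of the 14 was 0.03, with 7 below 0 and 7 above. Besides Trf, the lower genes were Aco1, Hpx and Hp. Aco1 encodes an iron regulatory protein that binds the element printed above. Aco1 fell from 19.6 ± 5.75 to 9.96 ± 4.05 (SD, n = 3, limma adjusted p = 0.0484), from 28, 20 and 43 reads in WT and 10, 5 and 6 in HSKO. The mean of Aco1 was above the limit of 10 only in WT, so its selection for the test favoured a fall. With no limit on the mean, Aco1 was not called (limma adjusted p = 0.142). Its groups overlapped. Hpx, the plasma heme scavenger hemopexin, fell from 268 ± 65.3 to 153 ± 47.3, and Hp, the hemoglobin scavenger haptoglobin, from 376 ± 185 to 205 ± 41.3 (SD, n = 3, limma adjusted p = 0.0187 and 0.0351). Without WT replicate 1 all 4 lost their calls (limma adjusted p of Aco1, Hpx, Hp and Trf 0.127, 0.0640, 0.188 and 0.0562), as they did with scaling to hepatocyte markers. Without HSKO replicate 2 the adjusted p of Aco1, Hpx and Hp was 0.132, 0.124 and 0.155, and without HSKO replicate 1 that of Hpx and Hp was 0.0723 and 0.108. Aco1 was also not called without WT replicate 3 (0.219) or HSKO replicate 3 (0.0985). Over all alternatives, the number of iron genes called lower ran from 0 (hepatocyte markers, or without WT replicate 1) to 12 (total reads), with 1 without the trend or the filter, 3 in DESeq2, 6 in edgeR, 7 with quantile normalization and 10 with upper quartile scaling or total reads without BC071253. Heph and Cybrd1, a ferroxidase and a ferric reductase of the gut, had 0 reads in all 6 libraries.

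Heme genes were called in both directions, as were all rows tested. Of 21 listed heme genes with a row, 7 were tested, with 1 called higher, 2 lower and 4 neither, and a median of -0.70. Over all rows tested 28.5% were called higher and 11.6% lower, and the median of the hepatocyte markers was -0.58. Fech, the ferrochelatase that inserts iron into heme, fell from 24.3 ± 5.40 to 13.6 ± 3.01, and Pgrmc1, a heme-binding membrane protein, from 158 ± 25.5 to 95.3 ± 17.2 (SD, n = 3, limma adjusted p = 0.0461 and 0.0228). Hmox2, the constitutive heme oxygenase, rose from 20.3 ± 4.50 to 60.8 ± 11.96 (log2 fold change 1.54, adjusted p = 0.000710), from 29, 36 and 27 reads in WT and 38, 36 and 56 in HSKO. Fech lost its call without WT replicates 2 or 3 or HSKO replicates 1 or 3 (adjusted p 0.0504 to 0.219), in DESeq2 (0.0742), with no filter (0.163) and with the replicate block (0.0559), and Pgrmc1 without WT replicates 2 or 3 or HSKO replicate 2 (0.0695 to 0.133), with no filter (0.0617) and without the trend (0.0550). Neither was called with scaling to hepatocyte markers, and Hmox2 was called in every alternative that tested it. Erythroid markers, which would mark blood or blood-forming cells, summed to 14.1 to 25.0 in WT and 14.5 to 21.3 in HSKO, with Slc4a1 at 0 reads.

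Among copper genes, Cp was the only 1 called lower and the assembly factors Cox11 and Sco2 were called higher. All 17 listed genes had reads and 8 were tested, with 5 called neither way and a median of -0.41. These counts lay near the shares of all rows tested, of which 28.5% were called higher and 11.6% lower. Cox11 and Sco2 deliver copper to cytochrome c oxidase in mitochondria. Cox11 rose from 32.3 ± 3.80 to 89.3 ± 11.6 and Sco2 from 21.4 ± 3.56 to 47.9 ± 9.97 (SD, n = 3, limma adjusted p = 0.000710 and 0.00361). Sco2 had 32, 34 and 31 reads in WT and 39, 34 and 28 in HSKO, near equal, while the HSKO size factors were lower. Sco2 was not called with scaling to total reads (adjusted p = 0.179) or to total reads without BC071253 (0.0591), and Cox11 was called in every alternative that tested it.

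The list of zinc and metallothionein genes had 3 of 6 tested genes called higher, Mt1, Mtf1 and Slc30a7, and the other 3 neither way, beside 28.5% of all rows tested called higher. The number called higher was 0 with scaling to total reads, 1 with total reads without BC071253 and 2 without HSKO replicate 3. The median was 0.37, and -0.38 over the 5 tested genes without Mt1. The median of all 6 turned to -0.27 with scaling to total reads and to -0.09 with total reads without BC071253. Mtf1, the zinc sensor that drives metallothionein transcription, rose from 51.9 ± 16.3 to 112 ± 22.6, and Slc30a7, a zinc transporter of the Golgi, from 17.6 ± 2.06 to 40.2 ± 6.78 (SD, n = 3, limma adjusted p = 0.00315 and 0.00303). Mtf1 had 92, 71 and 69 reads in WT and 68, 68 and 104 in HSKO, and Slc30a7 had 25, 28 and 27 against 32, 28 and 25. With scaling to total reads neither was called (adjusted p = 0.155 and 0.165), and Slc30a7 was not called with total reads without BC071253 (0.0528). Slc39a5, a zinc importer, had 0 reads in all 6 libraries.

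**Figure D4:**
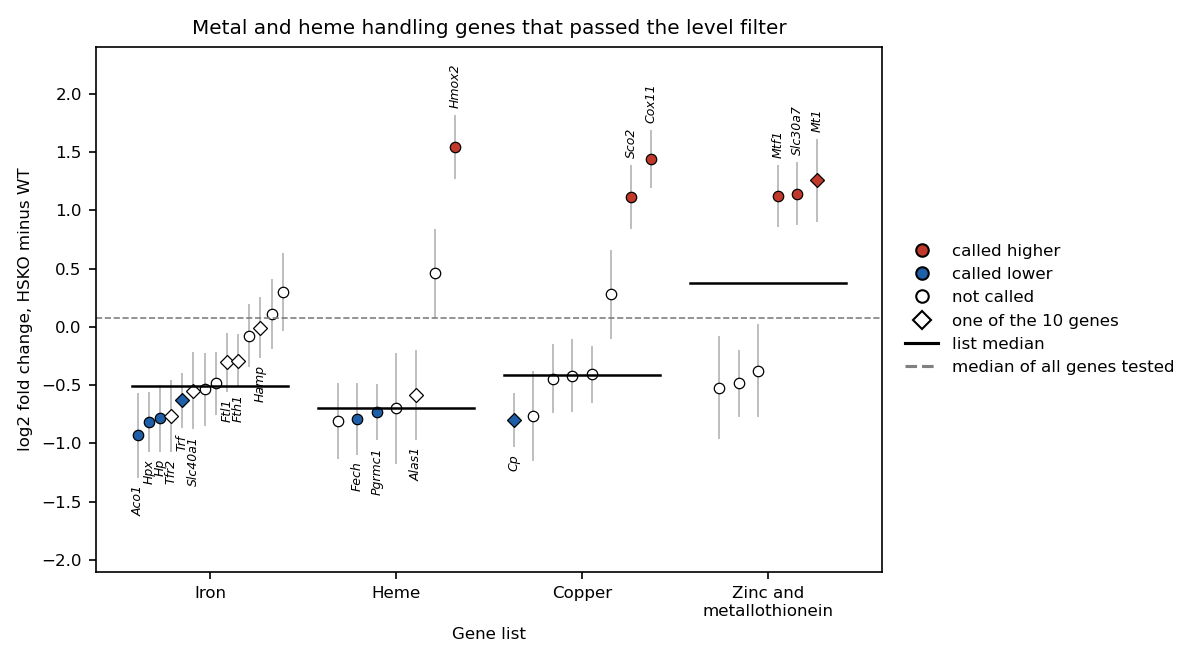
Log2 fold change (vertical axis, HSKO minus WT, with SE) of every tested gene of 4 lists, ordered by value within a list, red where called higher, blue where called lower and open elsewhere, with diamonds for the 10 genes, a black line at each list's median and a dashed line at the median of all rows tested (0.07). The called iron genes all lie below 0, and the called zinc and metallothionein genes all lie above 1.

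The rows whose pattern over the 6 libraries was most like that of a member were found by Pearson's r of log2(value + 1). The search covered the 2750 tested rows, leaving out predicted genes, rows named by a sequence record and rows with more than 1 name. For Trf these were Apoc1, an apolipoprotein of plasma lipoproteins (r = 0.993), and Pccb (0.993). For Mt1 they were Spg11 (0.989), Prepl (0.979) and Canx, an endoplasmic reticulum chaperone (0.977). For Hamp they were Abi1 (0.968), Llph (0.957) and Puf60 (0.956). All points share their libraries and size factors, and the names are a description. Spg11 and Prepl shared with Mt1 the high value of HSKO replicate 3 (51.9 for Spg11 and 1065 for Prepl) and the highest WT value in WT replicate 1 (32.1 and 559).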

How the data were processed

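Liver RNA of 6 samples, 3 per group, was sequenced from TruSeq Stranded mRNA libraries on an Illumina HiSeq instrument, per the labels. Tools listed per the submitters' processing notes are RSEM 1.2.9, DESeq 1.16.0, Bowtie and FastQC 0.11.3, with the build mm10 and no order or settings. How strand was treated in counting, and with which annotation, is not stated there or in the labels. The deposited values are a signal: read counts per gene divided by a size factor per library. All values (100%) were whole multiples of 1 read within a tolerance of 0.001, so whole reads were recovered. Total reads ranged from 631020 to 933319 per library, and intervals on reads cover counting error only.

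From the deposited values, log2(value + 1) of rows with a mean of at least 10 was fitted with limma 3.58.1 (R 4.3.3, mean-variance trend, both groups, no covariate), with Benjamini-Hochberg adjustment over 2750 rows and a threshold of 0.05. Fold changes are on that scale and understate changes of low genes. Alternatives were other pseudocounts, limits on the mean and scalings, a fit without the trend, a replicate block, edgeR 4.0.16 and DESeq2 1.42.0 on recovered reads, and each library left out. For Mt2, edgeR and DESeq2 without the limit were added after seeing the data. The functions were tested on simulated data.

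The members and lists were chosen with earlier results of these data known. Named genes were the 10 members, Abca1, the called genes of each wider list (up to the 6 with the smallest p), list genes with 0 reads in every library and, for Trf, Mt1 and Hamp, the 3 rows with the highest Pearson r, predicted genes left out; a few named items are not reported here. Positions and transcript lengths came from GENCODE M21 (mm10) and promoters from RefSeq (GRCm38.p6).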

Additional observations from a re-analysis of the deposited data

How the results depend on the processing

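The sign of Trf, Tfr2, Slc40a1, Alas1, Cp and Mt1 held in every alternative that tested them. Abca1 kept its sign and its call. With scaling to hepatocyte markers, however, Trf, Tfr2, Slc40a1, Alas1 and Cp were only at -0.07, -0.23, -0.02, -0.03 and -0.24. None of these was called there (limma adjusted p 0.544 to 0.973). Hamp turned to 0.55 and Fth1 and Ftl1 to 0.27 and 0.26 (log2 fold change) with scaling to hepatocyte markers, and Hamp to 0.19 without WT replicate 1 and 0.13 without HSKO replicate 2, within -0.14 to 0.19 over the libraries left out. Over all rows, genes called higher and lower, 783 and 320, became 580 and 703 with upper quartile scaling, 595 and 502 with quantile normalization, 684 and 601 in edgeR, 584 and 325 in DESeq2, 221 and 1044 with total reads, 429 and 913 with total reads without BC071253 and 1096 and 25 with hepatocyte markers. They were 391 and 118 with a minimum mean of 50, 211 were called lower with no filter, and with 1 library left out 581 to 822 were higher and 157 (without WT replicate 3) to 313 lower, with 159 without WT replicate 2.

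Among the members, 1 was called higher and 2 lower. The number higher was 2 with no filter, 0 with a minimum mean of 50 (Mt1 was not tested there), with total reads and with total reads without BC071253, and 0 to 1 with 1 library left out. The number lower was 1 with no filter and 1 without the trend (Trf adjusted p = 0.160 and 0.0865), 6 with upper quartile scaling, 5 with quantile normalization, 4 in edgeR, 8 with total reads, 7 with total reads without BC071253, 0 with hepatocyte markers and 1 to 2 with 1 library left out. The causes of these shifts were not tested.

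The values showed no sign that the replicate numbers pair the samples: deviations from the group means of same-numbered libraries correlated at -0.026, -0.027 and -0.021. With 3 libraries per group such correlations cannot settle whether the samples were paired by design. No library correlated best with its own number. With the replicate number as a block, 751 rows were called higher and 269 lower, and 1 member was called higher and 1 lower, Trf being at an adjusted p of 0.0610. Depth limits Mt2, Slc40a1, Tfr2 and Mt1, each with fewer than 50 reads in every library. Of the pairs of libraries within a group, HSKO replicates 1 and 2 were the most alike. Their reads over tested rows differed by a chi-square per degree of freedom of 2.35, against 9.56 to 15.75 for the other pairs. The reason was not tested, and the labels do not tie these libraries to separate animals.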
